A study of Mus musculus with 21 samples.

Results

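Txnip (thioredoxin-interacting protein), its close paralog Arrdc4, the thioredoxins Txn1 and Txn2 and the thioredoxin reductases Txnrd1 and Txnrd2 were described across 21 RNA-seq libraries of mouse neural stem/progenitor cells. The 6 genes were taken as listed symbols out of 24322 gene symbols in the deposited tables, and all 6 passed the filter on low values in every comparison. The list was chosen from measured values of these same libraries, and which comparison led to it is not stated, so the members' values and differences are given as a description, and test results are given for them only as the number of members called, from which nothing is read.

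All libraries came from C57BL/6 mice carrying a Nestin-EGFP transgene, in which the green fluorescent protein is driven by Nestin regulatory sequence and marks neural stem and progenitor cells. Pregnant mice received valproic acid (VPA, an antiepileptic drug that inhibits histone deacetylases) at 300 mg/kg/day by mouth on embryonic days 12, 13 and 14, or methylcellulose as the control. GFP-positive cells were sorted from VPA-exposed and control offspring, with forebrain as the tissue on embryonic day 15 (E15) and hippocampal dentate gyrus as the tissue on postnatal day 5 (P5) and at 12 weeks. At 12 weeks a further VPA-exposed group had voluntary exercise (called VPA with running here); no running group without VPA was analysed here. Each of the 7 groups had 3 libraries, and the labels do not say whether the 3 came from separate litters or animals, so spreads and p-values describe the variation between these samples, which may be technical.

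The deposited values are FPKM (fragments per kilobase of transcript, scaled to all mapped fragments of the library), so read depth is unknown and no counting interval can be given. FPKM summed to 465610–506183 per library at E15, 475775–492041 at P5 and 482753–574594 at 12 weeks. Between 16116 and 16734 genes were above 0 at E15, 17251–17601 at P5 and 12019–15210 at 12 weeks, so the 12-week libraries detected fewer genes. Nes, the gene whose regulatory sequence drives the sort, was present in all libraries, at 7.86–20.1 FPKM. The 12-week libraries also held transcripts of vessel cells: 8 endothelial markers summed to 90.1–489 FPKM there, against 0.636–11.8 FPKM at E15 and P5. At E15, VPA replicate 3 stood apart by choroid plexus transcripts. It also had the highest E15 sums of fibroblast, endothelial, microglia and erythroid markers. The E15 results of Txnip are given with and without that library. In bulk samples, fewer cells of a type and less RNA per cell cannot be told apart.

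Thioredoxins are small proteins that reduce disulfides in their clients, among them the peroxiredoxins, methionine sulfoxide reductases and ribonucleotide reductase. Thioredoxin reductases, which are selenoproteins, return them to the reduced form with electrons from NADPH, with Txn1 and Txnrd1 in the cytosol and Txn2 and Txnrd2 in mitochondria. Txnip is an alpha-arrestin that binds reduced thioredoxin and blocks it, and it also promotes removal of the glucose transporter Slc2a1 (GLUT1) from the cell surface. Its transcription, like that of Arrdc4, is known to follow glucose through the Mondo factors Mlxip and Mlxipl, which bind DNA with Mlx.

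Txnip lies on mouse chromosome 3 (mm10, 96557957–96561883, plus strand) and Arrdc4 on chromosome 7 (68736995–68749241, minus strand). The promoters of these alpha-arrestins are shown because Mondo factors are known to act on them. The 250 bases before each RefSeq start (GRCm38.p6, the same build) are printed 5′ to 3′ on the gene's strand, chr3:96557707-96557956 for Txnip and chr7:68749239-68749488 for Arrdc4. Capitals mark the matches to 4 motifs, each searched on both strands: a carbohydrate response pair (a pair of CACGNG letters separated by 5 bases), the CCAAT box (CCAAT), a forkhead site (GTAAACA) and an E-box (CACGTG).
Txnip: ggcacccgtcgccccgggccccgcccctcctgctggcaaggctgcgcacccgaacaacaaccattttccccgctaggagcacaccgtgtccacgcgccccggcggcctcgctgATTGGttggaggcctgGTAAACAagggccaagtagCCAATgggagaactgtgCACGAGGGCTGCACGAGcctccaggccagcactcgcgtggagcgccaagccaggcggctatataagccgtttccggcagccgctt
Arrdc4: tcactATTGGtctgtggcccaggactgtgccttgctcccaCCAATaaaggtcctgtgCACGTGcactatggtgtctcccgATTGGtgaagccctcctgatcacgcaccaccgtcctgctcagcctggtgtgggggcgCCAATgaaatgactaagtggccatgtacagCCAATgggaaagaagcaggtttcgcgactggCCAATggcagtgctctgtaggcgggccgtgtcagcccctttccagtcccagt
In Txnip, the pair lay 85 to 69 bases before the start, and 15 of 32851 mouse promoter windows of the searched length (0.0457%) held such a pair. The Txnip window also held the forkhead letters, found in 3.17% of windows, and CCAAT at 2 positions, found in 33.8% of windows. The Arrdc4 window held 1 E-box, found in 6.02% of windows, and CCAAT at 6 positions, and no match to the pair. Only pairs with both parts in the same direction and these letters were searched, so other forms of the pair are not covered. A further motif, the antioxidant response core (TGANNNNGC), was in 35.2% of windows, among them those of Arrdc4, Txn2 and Txnrd1; it was not capitalised. These matches are letters in a window and say nothing of binding in these cells.

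Txnip had the widest range of the 6 members, from 5.42 FPKM in a VPA library at E15 to 127.3 FPKM in a VPA library with running, a 23.5-fold span. Its highest and lowest group means differed 13.2-fold, a larger ratio than in 94.4% of the 10474 genes compared, whose median ratio was 1.84. The genes compared had a mean of at least 5 FPKM over all libraries. Genes undetected in every library of a group have no finite ratio and were left out, which raises that share. The other members spanned far less between group means: 2.12-fold for Arrdc4, 1.49-fold for Txnrd2, 1.37-fold for Txnrd1, 1.25-fold for Txn1 and 1.23-fold for Txn2. For Txn1 and Txn2 the ratio was larger than in only 4.85% and 3.56% of genes. The ordered Txnip means were 114 ± 12.0 FPKM in VPA with running at 12 weeks, 103 ± 11.6 in control at 12 weeks, 90.4 ± 14.3 in VPA at 12 weeks, 28.3 ± 5.25 in VPA at P5, 24.6 ± 1.28 in control at E15, 19.5 ± 1.31 in control at P5 and 8.63 ± 3.37 in VPA at E15 (SD, n = 3 each). The 3 adult groups overlapped their neighbours in this order, as did VPA at P5 and control at E15; the other neighbouring groups did not overlap.

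**Figure D1:**
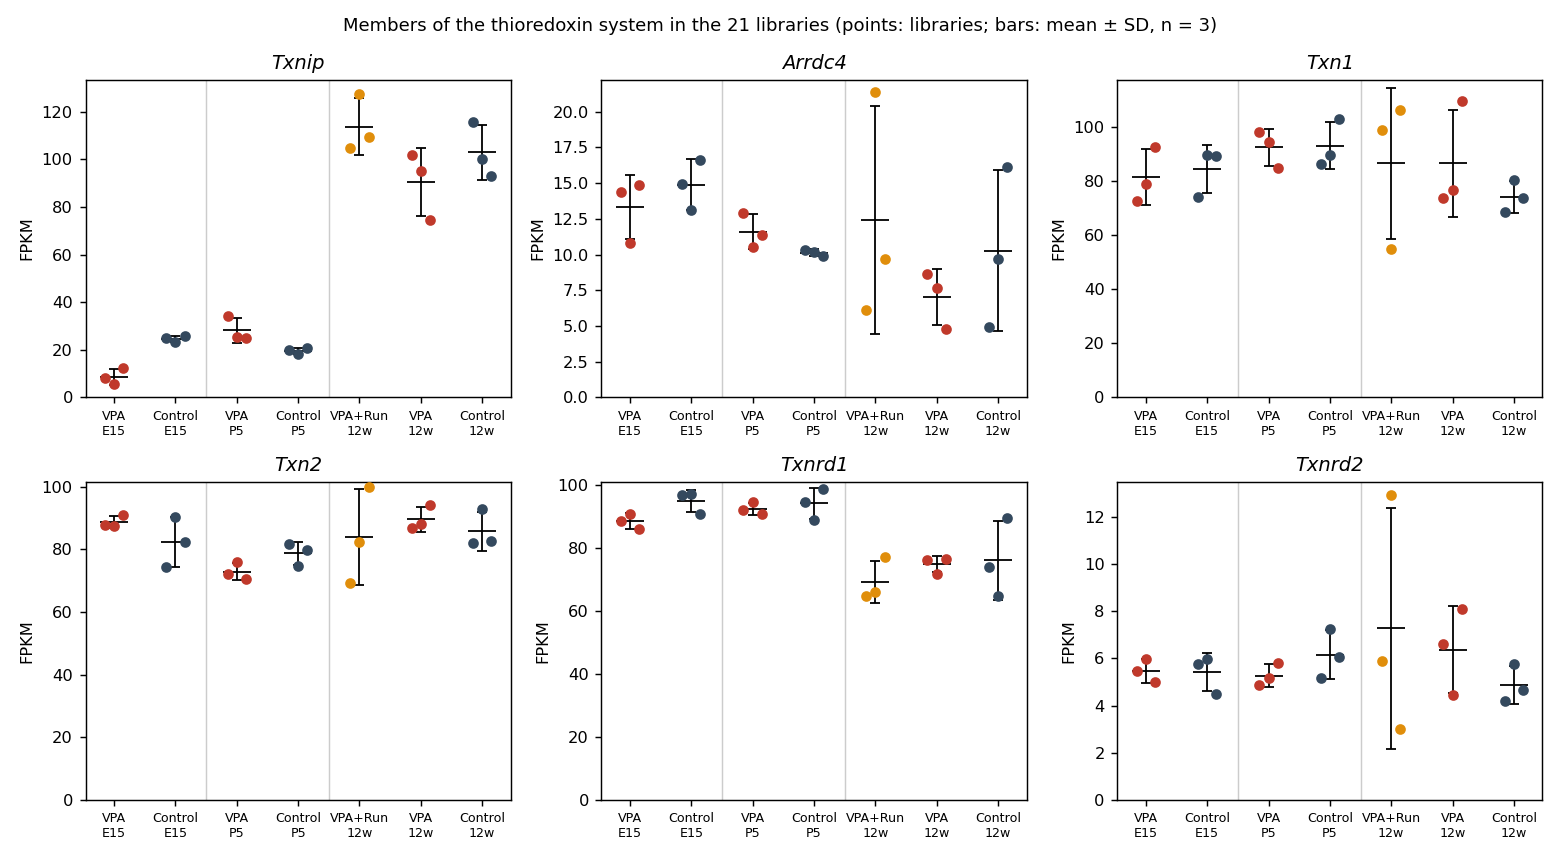
FPKM of each member (y axis, from 0) in the 7 groups (x axis); points are libraries and bars the mean ± SD of 3. Txnip lies between 74.3 and 127.3 FPKM in the 9 adult libraries and between 5.42 and 34.3 FPKM in the 12 younger ones, while the group means of the other 5 genes stay within 2.12-fold of each other.

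At E15, about a day after the last dose, Txnip was lower in VPA-exposed forebrain cells. It had 8.33, 5.42 and 12.1 FPKM in the VPA libraries, against 24.9, 23.2 and 25.8 FPKM in the control libraries. The highest VPA library stood below the lowest control library by more than the control group's whole range. The difference was −1.47 ± 0.24 (SE) on the log2(FPKM + 1) scale, a scale that understates the change of low genes, and the control mean was 2.86-fold the VPA mean. Arrdc4 did not separate the groups, with 14.4, 10.8 and 14.9 FPKM in VPA libraries and 14.96, 13.1 and 16.6 FPKM in control libraries. Txn1, Txn2, Txnrd1 and Txnrd2 differed by between −0.10 and 0.11 on the same scale, and their groups overlapped.

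By limma's moderated test with Benjamini-Hochberg adjustment (adjusted p under 0.05 counts as called), 0 of 6 members were called at E15, beside 0.0405% of all genes tested. At an unadjusted p under 0.05 the counts were 1 of 6 members and 10.5% of all genes. Non-overlapping values were found in 1 of 6 members, Txnip, and in 17.5% of all genes. The number called was 1, Txnip, when all 21 libraries shared 1 estimate of the spread and when VPA replicate 3 was left out (Txnip log2 difference −1.73). That VPA replicate had the highest Txnip of its group, and in it 7 choroid plexus markers summed to 11200 FPKM, against 36.3 and 64.4 FPKM in the other VPA libraries and 11.6–156 FPKM in the control libraries. Its fibroblast markers summed to 83.3 FPKM, against 3.63 and 4.15 FPKM in the other VPA libraries and 5.52–8.43 FPKM in the control libraries. Its endothelial (7.41 FPKM), microglia (6.90 FPKM) and erythroid sums (186 FPKM) were also the highest at E15. Endothelial markers were near 0 in the E15 libraries (0.636–7.41 FPKM summed in VPA libraries, 1.497–2.96 in control libraries), and pericyte markers summed to 11.0–13.0 FPKM in VPA libraries and 15.7–17.3 FPKM in control libraries, without overlap. Of 13 marker lists, 1 other did not overlap, that of newborn neurons (3088–3282 FPKM in VPA libraries, 3340–4134 FPKM in control libraries). The part of any of these in the Txnip difference was not tested.

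At P5, Txnip was on the other side of its control. It had 34.3, 25.4 and 25.0 FPKM in VPA libraries, against 19.8, 18.1 and 20.6 FPKM in control libraries. Every VPA library was above every control library, with replicate 1 the highest. The difference was 0.50 ± 0.12 (SE, log2 scale), and the VPA mean was 1.45-fold the control mean. Arrdc4 moved the same way by less, with 12.9, 10.5 and 11.3 FPKM in VPA libraries, against 10.3, 10.2 and 9.87 FPKM in control libraries, a difference of 0.17 ± 0.08 (SE) without overlap. Txn2 had 72.9 ± 2.75 FPKM in VPA libraries and 78.8 ± 3.68 FPKM in control libraries (SD, n = 3 each), and Txnrd2 had 5.27 ± 0.474 and 6.15 ± 1.04 FPKM in the same order; in each the groups overlapped. Txn1 and Txnrd1 differed by −0.01 and −0.02.

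At P5, 0 of 6 members were called by limma, beside 2.24% of all genes. At an unadjusted p under 0.05 the counts were 1 of 6 members and 23.96% of all genes, so the count is not above the background. Values did not overlap in 2 of 6 members, against 29.4% of all genes. The summed level of 9 of the 13 marker lists did not overlap between these groups. Pericyte markers were higher with Txnip: the 7 markers summed to 148–284 FPKM in VPA libraries and 95.2–116 FPKM in control libraries, with the defining marker Pdgfrb at 14.0–23.7 and 8.56–9.12 FPKM. The VPA library with the highest Txnip, replicate 1, also had the highest pericyte and fibroblast sums among the VPA libraries. The endothelial, microglia and mature neuron sums were highest in VPA replicate 2. The 8 endothelial markers summed to 9.41–11.8 FPKM in VPA libraries and 4.37–6.32 FPKM in control libraries. Fibroblast markers (39.0–47.4 and 17.1–20.8 FPKM), microglia markers (30.4–46.6 and 18.8–27.5 FPKM) and mature neuron markers (289–350 and 246–282 FPKM) were also higher in VPA than in control libraries. Immediate early genes (342–500 and 1225–1444 FPKM), erythroid genes (152–688 and 1309–1736 FPKM), dividing cell genes (158–198 and 210–218 FPKM) and neural stem cell genes (2175–2257 and 2267–2612 FPKM) were lower in VPA than in control libraries. The part of any of these in the Txnip difference was not tested.

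The VPA difference of Txnip thus had opposite signs at E15 and P5. The difference at P5 minus that at E15 was 1.97 ± 0.28 (SE, log2 scale). It was 2.23 without VPA replicate 3 of E15. In limma fitted to all 21 libraries, 1 of 6 members, Txnip, was called for this quantity, beside 0.0955% of all genes; since the gene was chosen from these libraries, nothing is read from that count. For Arrdc4, the same quantity was 0.33 ± 0.52, and for the other 4 members it lay between −0.22 and 0.08. These SE and calls rest on 1 estimate of the spread shared with the 12-week libraries. The SD of Arrdc4 there was 5.63 FPKM in control, 1.975 in VPA and 7.98 with running, against 0.236–2.23 FPKM at E15 and P5. Fitted within each age, its VPA difference was −0.15 ± 0.14 (SE) at E15 and 0.17 ± 0.08 (SE) at P5. At an unadjusted p under 0.05 the interaction had 1 of 6 members and 1.93% of all genes. Forebrain and dentate gyrus, age and time since the last dose all change between these sampling points and cannot be told apart.

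In adult dentate gyrus cells Txnip did not separate VPA from control. It had 101.9, 95.0 and 74.3 FPKM in VPA libraries, against 115.7, 100.2 and 93.0 FPKM in control libraries. The ranges overlapped, and the difference was −0.19 ± 0.18 (SE). Relative to P5, the VPA difference had shifted by −0.69 ± 0.28 (SE), which was not called; 0 of 6 members were called for this quantity, beside 0.389% of all genes. At an unadjusted p under 0.05 the counts were 1 of 6 members and 10.5% of all genes. The lowest adult library for Txnip, VPA replicate 3, was also the lowest for the summed endothelial markers (90.1 FPKM, against 180 and 247 FPKM in the other VPA libraries and 262–489 FPKM in control libraries). The highest endothelial sum, in control replicate 2, went with 100.2 FPKM of Txnip, the middle value of its group. The lowest adult pericyte sum, 631 FPKM in replicate 3 of VPA with running, went with 109.3 FPKM of Txnip. In VPA against control, the endothelial sums did not overlap, nor did those of 3 other lists of 13: newborn neuron (1128–1380 and 1694–1998 FPKM), oligodendrocyte lineage (669–953 and 631–647 FPKM) and immediate early genes (1868–2118 and 1306–1823 FPKM). The part of any of these in the Txnip values was not tested.

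With running, Txnip had 104.6, 127.3 and 109.3 FPKM in VPA libraries, against 101.9, 95.0 and 74.3 FPKM in VPA libraries without running. The running values were all above the non-running ones, by a narrow margin between the nearest libraries. The difference was 0.34 ± 0.18 (SE) against VPA without running and 0.14 ± 0.18 (SE) against control, where the values overlapped. Endothelial sums were 185–274 FPKM with running, 90.1–247 FPKM in VPA without running and 262–489 FPKM in control (Txnip 93.0–115.7 FPKM in those control libraries). Arrdc4 was spread widely at this age, at 6.12, 21.4 and 9.69 FPKM with running, 8.62, 7.65 and 4.82 FPKM in VPA without running and 4.93, 9.70 and 16.1 FPKM in control. The group means of Txnrd1 were 69.2 ± 6.69 FPKM with running, 74.8 ± 2.64 FPKM in VPA and 76.0 ± 12.5 FPKM in control (SD, n = 3 each), and the groups overlapped.

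In none of the 3 adult comparisons was a member called by limma (0 of 6 each, and 0 of 6 at an unadjusted p under 0.05), and the share of all 13847 genes called was 0% for VPA against control, 0% for VPA with running against VPA and 0% for VPA with running against control. At an unadjusted p under 0.05 these comparisons had 885, 1566 and 1074 genes. Values did not overlap in 0 of 6 members for VPA against control (15.5% of all genes) and in 1 of 6, Txnip, for VPA with running against VPA (again 15.5%). For VPA with running against control, 0 of 6 members were without overlap (13.1% of all genes). The 2 contrasts of running share their running libraries.

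**Figure D2:**
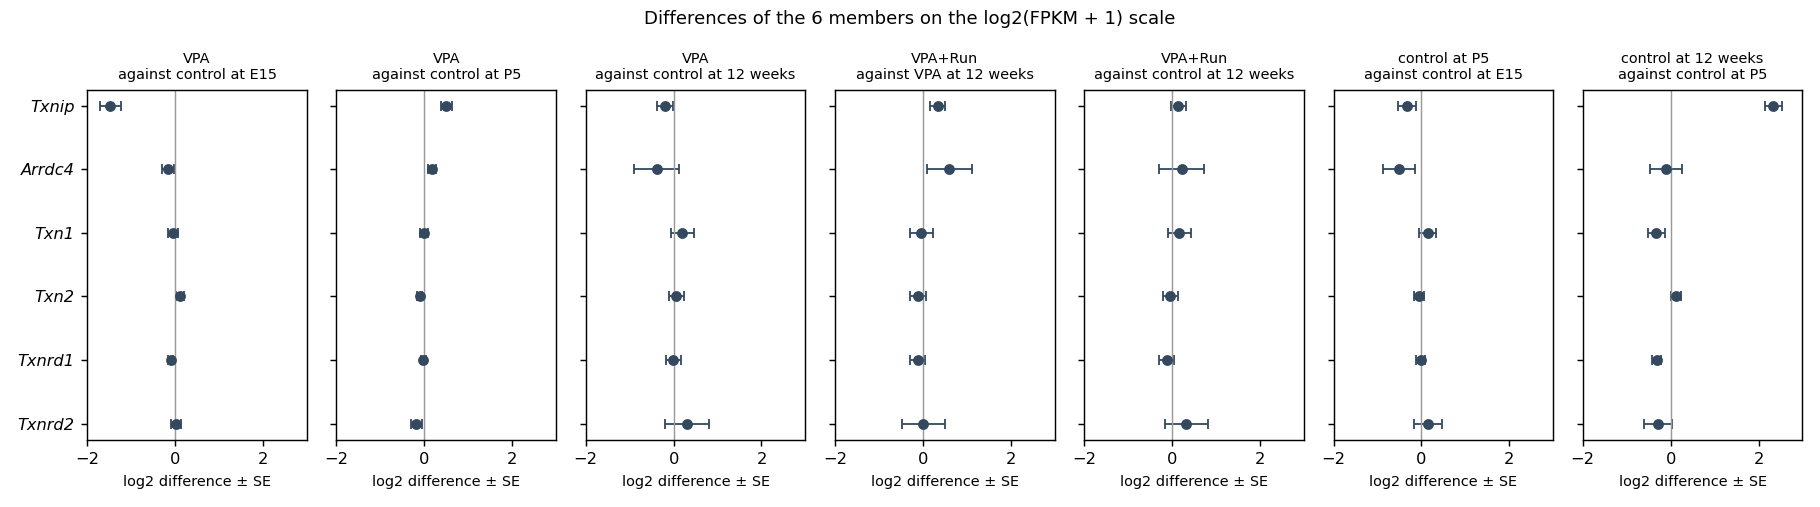
Differences of the 6 members (rows) on the log2(FPKM + 1) scale (x axis) in 7 comparisons (panels); points are limma estimates and bars their SE. Txnip stands at −1.47 for VPA against control at E15, 0.50 at P5 and 2.34 for control at 12 weeks against control at P5, while the largest value of another member is 0.60, of Arrdc4 for VPA with running against VPA.

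Across ages of the control groups, Txnip was slightly lower in P5 dentate gyrus than in E15 forebrain and several-fold higher in adult dentate gyrus. The control means were 24.6 ± 1.28 FPKM at E15, 19.5 ± 1.31 at P5 and 103 ± 11.6 at 12 weeks (SD, n = 3 each). P5 was −0.32 ± 0.20 (SE) against E15 with no overlap, and 12 weeks was 2.34 ± 0.20 (SE) against P5, a 5.28-fold ratio of means. In the VPA groups the means were 8.63, 28.3 and 90.4 FPKM at the same ages, so Txnip was ordered by age there and not in the controls. Txnrd1, the cytosolic reductase, ran the other way after P5, with 73.9, 64.7 and 89.5 FPKM in control at 12 weeks, against 94.5, 88.9 and 98.7 FPKM in control at P5. Those Txnrd1 values overlapped by the highest adult library, and the difference was −0.31 ± 0.10 (SE). Txn1 was 74.3 ± 5.93 FPKM in control at 12 weeks and 93.2 ± 8.76 FPKM in control at P5 (SD, n = 3 each), a difference of −0.32 ± 0.20 (SE) without overlap. Txn2, by contrast, was 0.12 ± 0.11 (SE) higher at 12 weeks, also without overlap.

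Between control at P5 and control at E15, 0 of 6 members were called by limma, beside 20.7% of all genes. At an unadjusted p under 0.05 the counts were 0 of 6 members and 30.4% of all genes. Values of 2 of 6, Txnip and Arrdc4, were without overlap, as were those of 66.5% of all genes. Between control at 12 weeks and control at P5, 1 of 6 was called, Txnip, beside 12.6% of all genes. At an unadjusted p under 0.05 there were 2 of 6 members and 25.4% of all genes. Values of 3 of 6, Txnip, Txn1 and Txn2, were without overlap, as were those of 37.5% of all genes. Vessel cell markers moved with this age difference: endothelial markers summed to 262–489 FPKM in control at 12 weeks, against 4.37–6.32 FPKM in control at P5, and pericyte markers to 997–2274 FPKM, against 95.2–116 FPKM. The defining endothelial marker Cldn5 was at 68.1–205 FPKM in control at 12 weeks and 1.34–3.497 FPKM in control at P5. In all, 8 of 13 marker lists did not overlap; among these, oligodendrocyte lineage markers were at 631–647 FPKM in control at 12 weeks and 140–202 FPKM in control at P5, and neural stem cell markers at 613–1218 and 2267–2612 FPKM in the same order. Their part in the Txnip difference was not tested.

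**Figure D3:**
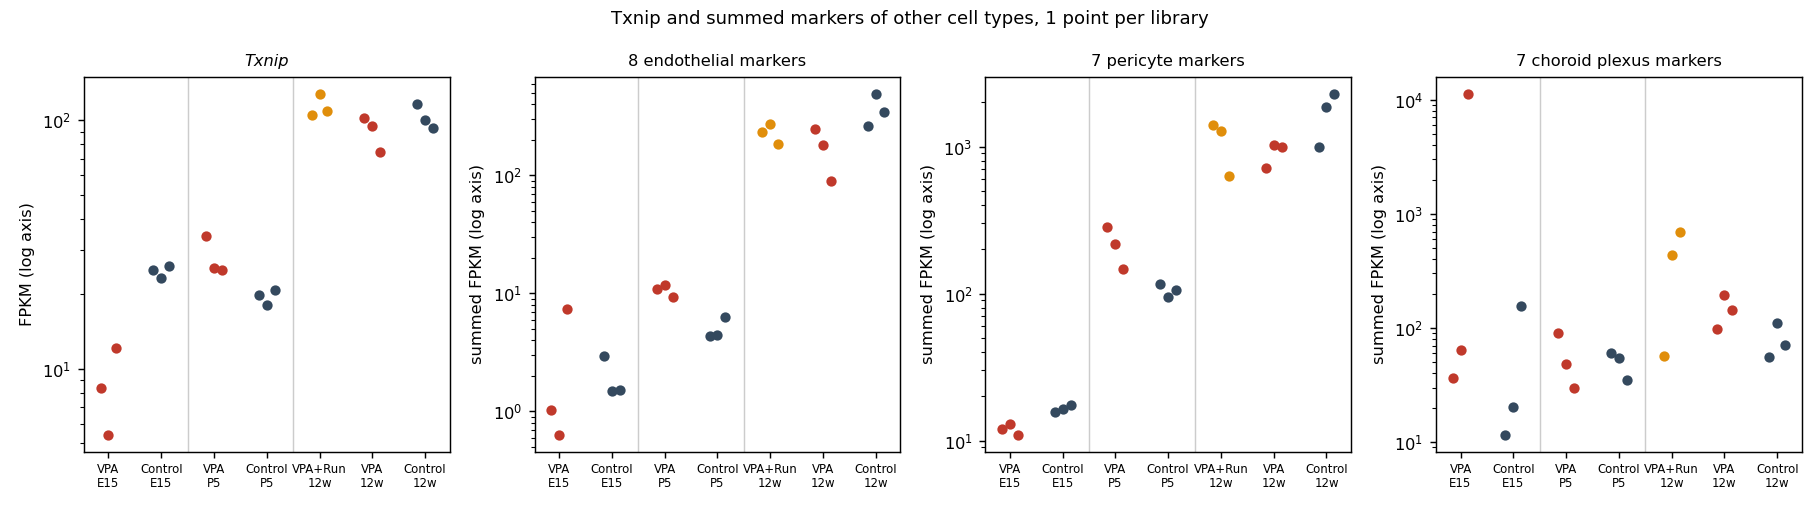
FPKM of Txnip and summed FPKM of endothelial, pericyte and choroid plexus markers (y axes, log scale) by library in the 7 groups (x axis). The adult libraries are highest for Txnip, endothelial and pericyte markers alike; at E15, Txnip is lower in VPA while endothelial sums are at most 7.41 FPKM, and the choroid plexus panel shows the single VPA library at 11200 FPKM.

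The ratio of the inhibitor's transcript to that of its target, Txn1, varied with Txnip. Per length, Txnip had 0.105 ± 0.0322 of the Txn1 FPKM in VPA libraries at E15 and 0.294 ± 0.0388 in control libraries. At P5 the ratio was 0.304 ± 0.0414 in VPA libraries and 0.210 ± 0.0164 in control libraries. At 12 weeks it was 1.47 ± 0.739 in VPA with running, 1.10 ± 0.371 in VPA and 1.40 ± 0.253 in control (SD, n = 3 each). Txnip transcript was therefore below Txn1 in all 12 younger libraries, at a ratio of at most 0.350, and reached or passed it in 8 of the 9 adult ones. The mitochondrial and cytosolic thioredoxins stayed near parity, with a Txn1 to Txn2 ratio between 0.865 and 1.27 in the 7 group means.

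Genes whose level followed Txnip across all 21 libraries were sought by Pearson's r on the log2 scale. The 10797 genes searched had a mean of at least 5 FPKM over all libraries. This is a description over libraries that share ages and cell composition. The 5 highest were P4ha1, a collagen prolyl hydroxylase subunit (0.94), Kctd4 (0.93), the endothelial genes Cd34 (0.93) and Cldn5 (0.93), and Itga9, an integrin subunit (0.93). Cd34 and Itga9 passed the filter only through the adult groups. Group means of Cd34 were 0.149–1.12 FPKM at E15 and P5 and 7.60–18.6 at 12 weeks. Those of Itga9 were 0.457–1.58 and 8.63–15.2 FPKM. Txnip is also highest in adults, so nothing beyond that age step is read from the r over 21 libraries. The 3 lowest were Kdm6b, a histone H3 lysine demethylase (−0.93), Bcl9l, a Wnt pathway coactivator (−0.93), and Cdc42bpb, a kinase (−0.92). Among the 9 adult libraries alone, r was 0.95 for Cd34 and 0.77 for Kctd4, and 0.08 for P4ha1, 0.23 for Cldn5 and −0.07 for Itga9. Over the 7 group means, the highest were Fam174b (0.99), 2500004C02Rik (0.99) and Rad52, a DNA repair gene (0.98). The other members were not close to Txnip over 21 libraries, with r of −0.76 for Txnrd1, −0.35 for Arrdc4, −0.18 for Txn1, 0.12 for Txn2 and 0.03 for Txnrd2.

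The surrounding pathways were read from 8 lists of 104 genes, none of them a member. In VPA against control, 0 of 92 tested pathway genes passed limma's adjusted test at E15 and 0 of 97 at P5. At an unadjusted p under 0.05 there were 9 of 92 at E15, beside 10.5% of all genes, and 18 of 97 at P5, beside 23.96% of all genes, so neither count stands above the background. The median log2 difference over the lists was −0.02 at E15 and 0.01 at P5, beside −0.01 and −0.00395 over all genes. Among clients of thioredoxin at E15, the smallest p belonged to Msra, a methionine sulfoxide reductase, at 41.1 ± 3.68 FPKM in VPA libraries and 50.3 ± 4.08 FPKM in control libraries (SD, n = 3 each; limma adjusted p = 0.402). In the list of Mondo factors and glucose uptake genes at P5, it belonged to the inositol transporter Slc2a13, at 6.77 ± 0.279 FPKM in VPA libraries and 5.19 ± 0.280 FPKM in control libraries (SD, n = 3 each; limma adjusted p = 0.0702). The Mondo partner Mlx was at 28.7, 27.2 and 26.2 FPKM in VPA libraries at E15, against 26.2, 25.9 and 26.2 FPKM in control libraries.

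At 12 weeks, 0 of 100 pathway genes were called by limma in VPA against control (6 at an unadjusted p under 0.05, beside 6.39% of all genes), in VPA with running against VPA (7, beside 11.3%) and in VPA with running against control (8, beside 7.76%). With running against VPA, the smallest p of their lists were those of Gstm1, a glutathione transferase, at 175 ± 15.6 FPKM with running and 69.0 ± 13.3 FPKM without (SD, n = 3 each; limma adjusted p = 0.147), and in the peroxiredoxin Prdx6, at 114 ± 5.20 FPKM with running and 56.9 ± 5.54 FPKM without (SD, n = 3 each; limma adjusted p = 0.152). Nfe2l2, which encodes the antioxidant regulator Nrf2, was at 35.3 ± 8.28 FPKM with running and 14.8 ± 3.82 FPKM without (SD, n = 3 each; limma adjusted p = 0.204). Control libraries at 12 weeks, at 82.2–198 FPKM for Gstm1, 63.9–120 for Prdx6 and 16.7–29.8 for Nfe2l2, overlapped the running values. Of the other lists' smallest p, Slc2a12, Nedd4 and Pycard were higher with running and Glrx3 and Secisbp2 lower. Glrx3 was at 18.8 ± 10.1 FPKM with running and 34.1 ± 4.85 FPKM without (SD, n = 3 each). The sums of 7 of 13 marker lists did not overlap between VPA with running and VPA without. Astrocyte markers were higher with running (559–722 FPKM with running, 368–469 FPKM without), as were newborn neuron (1436–1895 and 1128–1380 FPKM), neural stem cell (753–1142 and 639–751 FPKM) and dividing cell genes (204–242 and 128–171 FPKM). Immediate early (958–1403 and 1868–2118 FPKM), oligodendrocyte lineage (458–495 and 669–953 FPKM) and microglia genes (9.75–56.0 and 69.8–84.6 FPKM) were lower with running. Their part in the differences of Txnip and of these genes was not tested. The difference of VPA effects had 0 of 100 pathway genes called by limma between P5 and E15 (0 at an unadjusted p under 0.05, beside 1.93% of all genes) and 0 of 100 between 12 weeks and P5 (9, beside 10.5%).

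Between ages, pathway counts are given beside the share of all genes called. In control at P5 against control at E15, 28 of 100 pathway genes were called by limma, 22 higher and 6 lower, beside 20.7% of all genes; the list median was 0.21, and that of all genes 0.14. All genes called were split 2110 higher and 928 lower. With median-of-ratios scaling that split was 1818 and 1311, and the pathway split 17 and 9; with quantile scaling the median of all genes moved to −0.06, the split to 1392 and 1278 and the pathway split to 11 and 8. Of 13 marker lists, 11 did not overlap between these groups, which also differ in tissue: astrocyte markers were at 288–359 FPKM in control at P5 and 28.2–29.9 FPKM in control at E15, microglia markers at 18.8–27.5 and 0.640–1.65 FPKM, pericyte markers at 95.2–116 and 15.7–17.3 FPKM and immediate early genes at 1225–1444 and 29.1–52.6 FPKM, in the same order. Their part in the gene differences was not tested. Glutathione genes had 8 higher and 1 lower of 18. Gstm1 rose by 2.72 ± 0.23 (SE, log2 scale; limma adjusted p = 1.07e-07) and Gpx7, an endoplasmic reticulum peroxidase, by 1.32 ± 0.18 (limma adjusted p = 3.49e-05), while Slc7a11, the cystine importer, fell by 0.70 (SE 0.15; limma adjusted p = 0.00189).

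Thioredoxin clients had 3 called higher and 1 lower of 16 between these ages, beside 20.7% of all genes called. The same share stands beside the counts of the Nrf2 and thioredoxin-fold lists here. The thioredoxin-fold count, 3 of 20, is below it. Prdx1 was at 78.5 ± 3.86 FPKM in control at P5 and 41.2 ± 2.41 FPKM in control at E15 (SD, n = 3 each; limma adjusted p = 0.000354). Prdx2, the most abundant peroxiredoxin named here, was lower, at 615 ± 32.2 FPKM in control at P5 and 880 ± 65.0 FPKM in control at E15 (SD, n = 3 each; limma adjusted p = 0.00917). Of the Nrf2 list, 5 genes were higher and 3 lower of 18, with Nfe2l2 at 13.3 ± 0.613 FPKM in control at P5 and 3.03 ± 0.197 FPKM in control at E15 (SD, n = 3 each; limma adjusted p = 2.48e-05). Other thioredoxin-fold genes had 3 higher of 20, among them Glrx, a glutaredoxin (1.82 ± 0.45, SE; limma adjusted p = 0.00679), and Txndc5, a protein disulfide isomerase (1.01 ± 0.12, SE; limma adjusted p = 4.92e-06). The cytokine gene Il18 rose by 3.21 ± 0.29 (SE; limma adjusted p = 2.72e-07). Of the selenoprotein synthesis genes, 0 of 6 were called, beside 20.7% of all genes. At an unadjusted p under 0.05 there were 0 of 6, beside 30.4% of all genes.

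In control at 12 weeks against control at P5, when Txnip was 5.28-fold higher, 9 of 100 pathway genes were called by limma, 5 higher and 4 lower, beside 12.6% of all genes; the list median was 0.11 and that of all genes −0.04. Slc2a1, the glucose transporter that Txnip removes from the surface, had 87.4, 88.7 and 78.1 FPKM in control at 12 weeks, against 16.4, 14.4 and 14.8 FPKM in control at P5. It rose by 2.41 ± 0.28 (SE, log2 scale; limma adjusted p = 1.59e-05). Slc2a1 is also an endothelial glucose transporter, and the endothelial markers given above were higher at 12 weeks too. In adult VPA libraries Slc2a1 was at 57.0, 44.3 and 19.1 FPKM with running and 75.6, 57.1 and 39.5 FPKM without. Endothelial sums there were 185–274 and 90.1–247 FPKM in the same order. The part of endothelial cells in the Slc2a1 difference was not tested. The Mondo factor Mlxip fell between the control groups, at 14.4, 6.602 and 9.82 FPKM in control at 12 weeks, against 18.3, 19.2 and 16.9 FPKM in control at P5 (limma adjusted p = 0.0211). In VPA libraries Mlxip had 15.5, 15.9 and 15.1 FPKM at P5 and 15.9, 12.5 and 24.3 FPKM at 12 weeks. With running Mlxip had 15.7, 12.9 and 15.5 FPKM. Its relative Mlxipl had 3.77, 0.807 and 3.39 FPKM in control at 12 weeks and 1.23, 1.08 and 1.07 FPKM in control at P5, and was not called. Pfkfb3, which makes a glycolytic activator, fell by 1.35 (SE 0.16; limma adjusted p = 2.52e-05).

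Of the alpha-arrestins and their ubiquitin ligases, 1 was called higher and 1 lower among 8 between P5 and 12 weeks, beside 12.6% of all genes called. The alpha-arrestin Arrdc3 had 77.8, 59.8 and 48.0 FPKM in control at 12 weeks, against 35.6, 32.6 and 33.7 FPKM in control at P5 (limma adjusted p = 0.00287), while Arrdc4 differed by −0.11 ± 0.36 (SE). The ligase Wwp1 had 3.96 ± 1.73 FPKM in control at 12 weeks and 6.61 ± 0.758 FPKM in control at P5 (SD, n = 3 each; limma adjusted p = 0.0443). Msrb3, a methionine sulfoxide reductase, and Txndc16 rose by 1.95 ± 0.44 and 0.87 ± 0.16 (SE; limma adjusted p = 0.0061 and 0.00117). Gstm1 rose again, by 1.16 ± 0.23 (SE; limma adjusted p = 0.00256). Gpx3, a secreted glutathione peroxidase, was listed at 2.59, 0 and 0.394 FPKM in control at 12 weeks, against 12.6, 12.2 and 12.6 FPKM in control at P5 (limma adjusted p = 0.00312). Of the Nrf2 list, 0 of 18 genes were called, beside 12.6% of all genes. At an unadjusted p under 0.05 there were 4 of 18, beside 25.4% of all genes, so the count is not above the background.

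**Figure D4:**
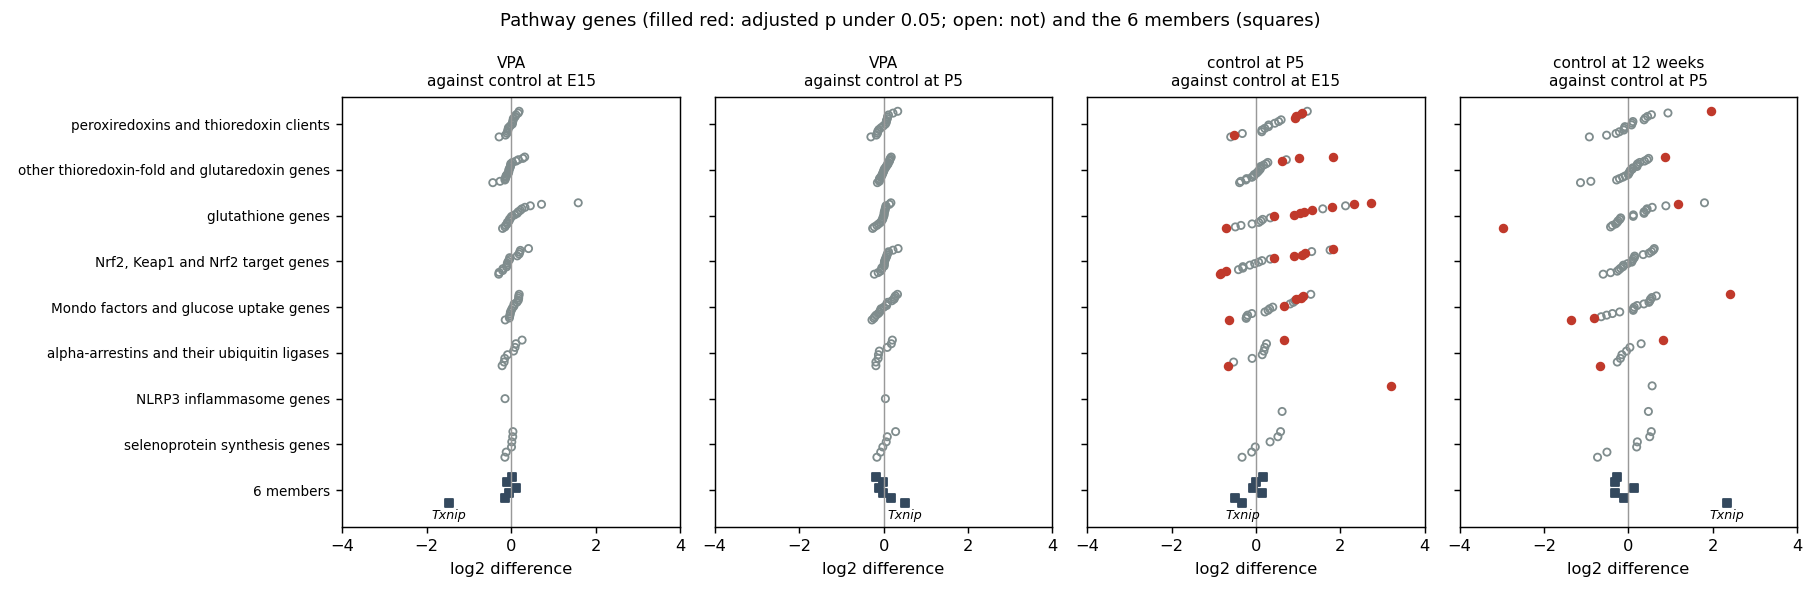
Log2 differences (x axis) of the genes of 8 pathway lists (rows, genes ordered by value within a row) and of the 6 members (squares) in 4 comparisons; filled red points have a limma adjusted p under 0.05. No pathway gene is filled for VPA against control at E15 or P5, and 28 and 9 are filled for the age comparisons of control libraries; a gene on more than 1 list is drawn in each.

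Some members share sequence or position with other genes, and whether the authors counted by strand is not given in the sources used here. Gm15441 is antisense to Txnip with overlapping exons; it was at 0.0895–0.380 FPKM at E15, 0.107–0.368 FPKM at P5 and 0 in 8 of 9 adult libraries, with 3.09 FPKM in the highest. A processed pseudogene, Txn-ps1, may share reads with Txn1.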

How the data were processed

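Polyadenylated RNA of GFP-sorted cells was sequenced on an Illumina HiSeq instrument, per the labels. TopHat, Bowtie2, Cufflinks and Cuffdiff with mm10 are named in the submitters' processing notes; the sources used here give no versions or settings for them. The authors deposited 1 FPKM value per gene and library, so read counts and depth are unknown; no column was left unmapped. The members, the pathway and marker lists and the naming rule were chosen with earlier results of these data known. Named pathway genes are, per list and comparison, up to 2 called genes per direction with the smallest adjusted p, otherwise the 1 with the smallest p. Values were tested as log2(FPKM + 1) with limma 3.58.1 (R 4.3.3, intensity trend), keeping genes at 1 FPKM or more in at least 3 libraries of the fit, and p-values were adjusted by Benjamini-Hochberg over all genes tested. VPA contrasts at E15 and P5 used their own 6 libraries, the adult ones the 9 adult libraries, and the age and interaction contrasts all 21. The fits were tested on simulated data. No libraries held identical values. Alternatives were another pseudocount, filters, scalings, variance models, sets of libraries, the replicate number as a block and each library left out. At E15 same-numbered VPA and control libraries deviated together (3 of 3 pairs, r 0.106 to 0.161, other-numbered pairs at most 0.00711), so there the numbers may pair the libraries. These r are low, and replicate 3 had the highest choroid plexus sum in both groups (156 FPKM in control, 11200 FPKM in VPA). No pairing is stated in the labels. The main fits used no replicate block, so their SE and calls at E15 ignore any pairing. Gene positions are from GENCODE vM21 and promoters from RefSeq (all 6 members matched). The result of 1 gene that overlaps a member is not reported here.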

Additional observations from a re-analysis of the deposited data

Results flagged for a closer look

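Txnip, VPA effect at P5 minus VPA effect at E15: the log2 difference between VPA and control at P5 exceeded that at E15 by 1.97 (SE 0.28), a difference between the ages fitted as an interaction in limma over 21 libraries. Txnip was chosen from values of these libraries, so this is a description and no independent support. In all 3 VPA libraries Txnip was above every control library at P5, and in all 3 it was below every control library at E15.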

How the results depend on the processing

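Log2 differences of Txnip ranged over the alternatives from −1.73 to −1.21 for VPA against control at E15, from 0.36 to 0.58 at P5, from 2.25 to 2.41 for control at 12 weeks against control at P5 and from 1.71 to 2.23 for the VPA effect at P5 minus E15. Members called in VPA against control at E15 numbered 1 with all 21 libraries in the fit and 0 to 1 when single libraries were left out (main 0). In control at P5 against control at E15 they numbered 2 with only the groups compared (Txnip and Arrdc4). In control at 12 weeks against control at P5 they numbered 2 with no filter or with median-of-ratios scaling and 1 to 2 with single libraries left out (main 1); the second was Txnrd1, called without control replicate 3 at 12 weeks (log2 difference −0.44).

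Pathway genes called numbered 4, 7 and 6 with all 21 libraries in the fit for VPA against control, VPA with running against VPA and VPA with running against control at 12 weeks (main 0 each). They numbered 66 with only the groups compared for control at P5 against control at E15 (main 28). With single libraries left out they numbered 0 to 2 for VPA against control at P5 (2 without VPA replicate 1), 7 to 18 for control at 12 weeks against control at P5 (18 without control replicate 1 at 12 weeks, main 9) and 0 to 2 for the VPA effect at 12 weeks minus P5 (2 without the same library).

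Counts over all genes ranged more widely: 0 to 11 at E15 (main 5), 15 to 543 at P5 (main 298), 0 to 533, 0 to 1698 and 0 to 886 in the 3 adult comparisons (main 0), 2271 to 8033 and 1139 to 2288 for the age comparisons (main 3038 and 1848), and 8 to 157 and 10 to 224 for the differences of VPA effects (main 14 and 57). The cause was not tested. No pairing by replicate number was seen at P5 or 12 weeks, where 0 of 12 same-numbered pairs had deviations correlated above 0.1. With 3 libraries per group this cannot exclude a pairing. At P5 the same-numbered r were −0.0424 to 0.0634 and the other-numbered ones −0.0960 to 0.0524. With the replicate number as a block, all-gene calls were 4 at E15, where the numbers may pair the libraries, and 70 at P5. In that setting the Txnip difference of VPA effects was 1.97, and no call of a member changed.

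Depth is unknown, so which low values depth limits cannot be said; Arrdc4 and Txnrd2, the least abundant members, had the widest spread among adult libraries.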
